A study of Homo sapiens with 6 samples.

Results

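The comparison set C4-2B MDVR against CWR22Rv1, 2 prostate cancer cell lines that resist enzalutamide, both treated with the vehicle DMSO for 48 h. Genes were members when their FPKM (fragments scaled by transcript length and by library) was above 1 in at least 1 of the 2 DMSO libraries. Of 60658 identifiers, 15164 genes met this rule, and 12686 of them were protein-coding and 1614 were long noncoding. NT5C1A, at 1.0 against 0.0684 FPKM in C4-2B MDVR and CWR22Rv1, lay just inside the threshold, and HUNK, at 0.998 against 0.232 FPKM, lay just outside. The series holds 6 libraries, 1 for each line with DMSO, with the HSP70 inhibitor apoptozole (APO) at 10 µM and with the HSP70 inhibitor VER155008 (VER), also at 10 µM. C4-2B MDVR was derived from C4-2B, itself of LNCaP descent, by growth in enzalutamide and was kept in 20 µM of that drug, whereas CWR22Rv1 was grown without it. Line, selection and drug in the medium therefore cannot be told apart. With 1 library a group, a difference has no replicate check, no SD and no test. A gene is called here when log2(FPKM + 0.1) differed by more than 1 between the lines, which is 2-fold. The APO and VER pairs show which line differences were also found in other libraries of the same lines.

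Luminal prostate cells depend on androgens, and enzalutamide blocks androgen signaling. Prostate cancer cells that resist the drug can keep this signaling on or come to grow without it. Androgen-induced genes such as KLK3, the gene of prostate-specific antigen, report the activity of the pathway.

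The C4-2B MDVR DMSO library stood apart in RNAs that are known to lack a poly(A) tail. The 7SL RNA genes RN7SL1 and RN7SL2 held 2.10% of its FPKM and between 0.102% and 0.205% in the other 5 libraries. Of 46 replication-dependent histone genes compared, 38 were over 2-fold higher in C4-2B MDVR under DMSO, where 17.3% of all compared genes were, with a median log2 difference of 3.28, and 15 were in all 3 pairs, where 10.3% of all compared genes were, with medians of 0.98 in the APO pair and 0.47 in the VER pair. Genes of the mitochondrial chromosome held 15.5% of FPKM in C4-2B MDVR and 25.7% in CWR22Rv1 under DMSO, 14.8% and 10.4% under APO and 16.4% and 25.7% under VER. Counts of called genes without these RNAs are given with the main counts.

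The lines differed in a large share of their transcriptome. Under DMSO, 2621 genes were higher in C4-2B MDVR, 17.3% of those compared, and 3143 were higher in CWR22Rv1, 20.7%. The median log2 difference was 0.03, and the 5th and 95th percentiles were -4.04 and 2.58. Among the called genes, 249 were listed at 0 in CWR22Rv1 and 571 were listed at 0 in C4-2B MDVR. No fold is given against a library listed at 0. The APO pair held 2661 and 2796 called genes, and the VER pair 2801 and 3362.

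**Figure D1:**
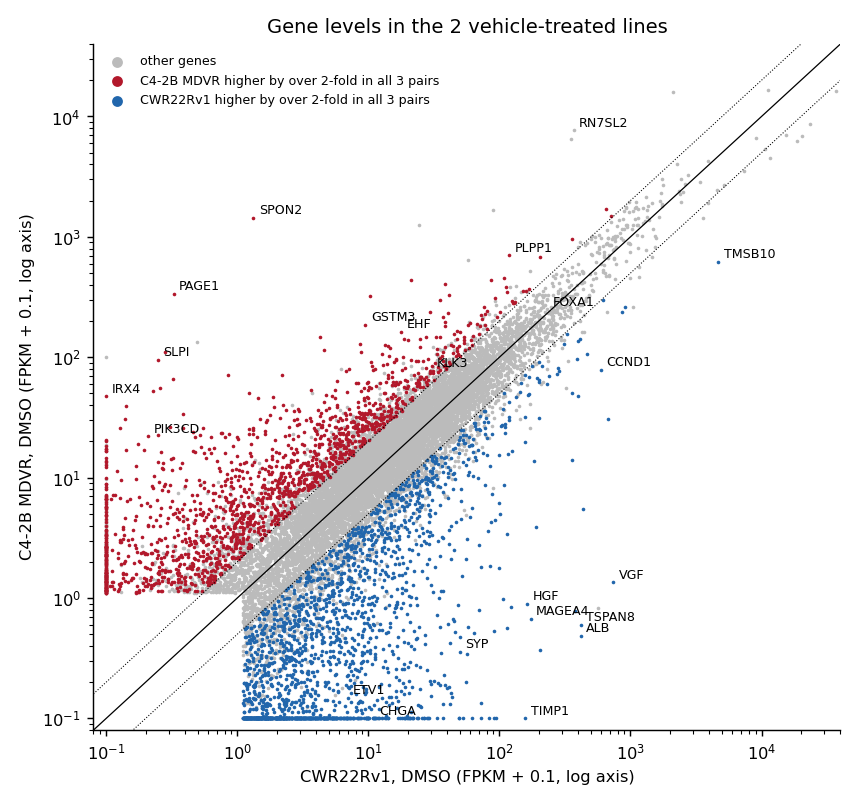
FPKM + 0.1 of each compared gene in the CWR22Rv1 (x) and C4-2B MDVR (y) DMSO libraries, both on log axes. The solid line marks equal levels and the dotted lines 2-fold. Red points were higher in C4-2B MDVR and blue points higher in CWR22Rv1 in all 3 pairs. SPON2 (1448 against 1.23 FPKM) and TIMP1 (0 against 157 FPKM) lie far from the line, while FOXA1 lies on it.

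Most differences were also present in the inhibitor pairs. Of the 2621 genes higher in C4-2B MDVR, 1556 (59.4%) were called the same way in all 3 pairs, which is 10.3% of all compared genes, 615 in 1 of the 2 inhibitor pairs and 450 in neither. Of the 3143 genes higher in CWR22Rv1, 1951 (62.1%) were called in all 3 pairs, which is 12.9% of all compared genes, 733 in 1 inhibitor pair and 459 in neither. The sign was the same in both inhibitor pairs for 88.2% and 88.5% of the calls. Persistence was also counted by the size of the DMSO difference. Among genes between 2- and 4-fold, 46.0% (C4-2B MDVR) and 36.7% (CWR22Rv1) were called in all 3 pairs. Among genes between 4- and 16-fold the shares were 78.1% and 74.6%, and among those over 16-fold, 78.5% and 89.7%. As the same 2-fold cut held in every pair, genes near it drop out more easily. The lower share between 2- and 4-fold therefore follows in part from the cut. The inhibitor pairs alone called 1899 and 2238 of the compared genes, and 343 and 287 of these were not called under DMSO. Without histone genes and small noncoding RNA types, the counts became 2554 and 3116 in the DMSO pair and 1538 and 1946 in all 3 pairs. With libraries rescaled to the same sum without genes of the mitochondrial chromosome, they became 2322 and 3512 in the DMSO pair and 1378 and 2151 in all 3 pairs. A further 6973 genes (46.0%) were within 2-fold in every pair.

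**Figure D2:**
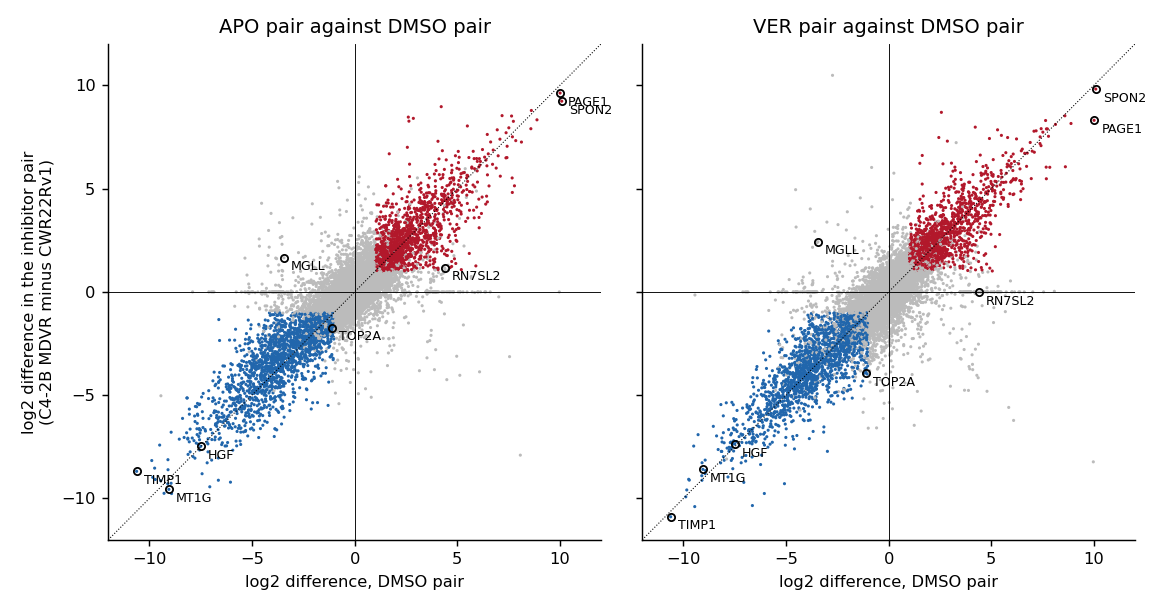
The log2 difference between the lines in the DMSO pair (x) and in the APO (left) or VER (right) pair (y), colored as in the plot of DMSO levels; the dotted diagonal marks equal differences. SPON2, PAGE1, HGF, TIMP1 and MT1G lie near the diagonal, and MGLL and RN7SL2 lie off it in both panels.

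By log2(FPKM + 0.1), the largest persistent difference in favor of C4-2B MDVR was SPON2. It encodes a secreted extracellular matrix protein of the spondin family (chr4:1166932-1208962, GRCh38). The order among genes near 0 in a line depends on the 0.1 added. Here and below, the values are for DMSO, APO and VER in that order. SPON2 was at 1448, 803 and 1097 FPKM in C4-2B MDVR and 1.23, 1.24 and 1.12 FPKM in CWR22Rv1, with log2 differences of 10.09, 9.23 and 9.82. IRX4, a homeodomain transcription factor, was at 47.1, 32 and 28.3 FPKM in C4-2B MDVR and listed at 0 in every CWR22Rv1 library. SLPI, a secreted inhibitor of leukocyte proteases, was at 94.9, 126 and 88 FPKM in C4-2B MDVR and 0.147, 0.428 and 0.139 FPKM in CWR22Rv1, and RAB25, an epithelial small GTPase, was at 52.3, 74 and 60.5 FPKM in C4-2B MDVR and 0.127, 0.363 and 0.827 FPKM in CWR22Rv1. In these genes, picked for their large differences, every C4-2B MDVR library was above every CWR22Rv1 library. The same held for 3733 of the 15164 compared genes. ST6GALNAC1, a sialyltransferase that forms the sialyl-Tn antigen, was at 39.6 against 0.0421 FPKM under DMSO. PXDN, a peroxidase of the extracellular matrix, was at 25.8 against 0.0267 FPKM. CLEC7A (the beta-glucan receptor Dectin-1), HPR (haptoglobin-related protein), COX7B2 (a paralog of a cytochrome c oxidase subunit) and RPL10L (a paralog of a ribosomal protein) were at 17.1, 16.5, 18.2 and 14.4 FPKM under DMSO and listed at 0 in all 3 CWR22Rv1 libraries. NLRP2, of the NOD-like receptor family, was at 17.1 FPKM in C4-2B MDVR and at most 0.0148 FPKM in CWR22Rv1. MAB21L4 was at 30.4, 3.41 and 18.4 FPKM in C4-2B MDVR, and its highest CWR22Rv1 value was 0.0382 FPKM.

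TIMP1, an inhibitor of matrix metalloproteinases (chrX:47582313-47586789), had by the same measure the largest persistent difference in favor of CWR22Rv1. It was at 0, 0.209 and 0 FPKM in C4-2B MDVR and 157, 127 and 189 FPKM in CWR22Rv1. S100A6, a calcium-binding protein, was at 91.1, 50.2 and 76.9 FPKM in CWR22Rv1 and listed at 0 in all 3 C4-2B MDVR libraries. The same held for RPL39L, a ribosomal protein paralog, at 49, 61.4 and 44.3 FPKM, and SLC43A3, a purine transporter, at 48.9, 11 and 28.2 FPKM. ALB, the serum albumin gene, was at 0.387, 0.258 and 0.471 FPKM in C4-2B MDVR and 416, 132 and 307 FPKM in CWR22Rv1. TSPAN8, a tetraspanin of the cell surface, was at 0.499 against 417 FPKM under DMSO. VGF, a secreted precursor of neuropeptides, was at 1.25, 0.627 and 0.659 FPKM in C4-2B MDVR and 742, 455 and 362 FPKM in CWR22Rv1, and RGS2, a regulator of G protein signaling, was at 0.683, 0.496 and 0.758 FPKM in C4-2B MDVR and 378, 518 and 345 FPKM in CWR22Rv1. For each of these, also picked for large differences, the lowest CWR22Rv1 library lay far above the highest C4-2B MDVR library. It lay above it, by any amount, in 3633 of the 15164 compared genes. The other genes of the top 15 were CFC1, a co-receptor for Nodal (94.2 FPKM in CWR22Rv1 under DMSO), TMEFF2 (83.7), CENPV (72.1), PGAM2, the muscle phosphoglycerate mutase (62.2), GPM6A, a neuronal membrane glycoprotein (72.6), the small heat shock protein HSPB6 (203) and MT1G. Their C4-2B MDVR DMSO values were between 0 and 0.272 FPKM.

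Long noncoding genes that differed most were AL033504.1 (19.9 FPKM under DMSO), BX119904.2 (13.6), LAMA5-AS1 (13.4), ZFPM2-AS1 (12.2) and LINC01770 (8.75) in C4-2B MDVR, all listed at 0 in CWR22Rv1 DMSO. In CWR22Rv1 they were LBX2-AS1 (20.9 FPKM), PAX8-AS1 (19.7), CCDC144NL-AS1 (34.1), AL354707.1 (15.1) and MAGEA4-AS1 (10.8), against at most 0.0986 FPKM in C4-2B MDVR. The counting is not stated to use strand, so reads of an antisense gene and its partner may be mixed. Of 9 compared genes among 16 long noncoding RNAs studied in prostate cancer, 0 were higher in C4-2B MDVR and 3 in CWR22Rv1. These were PCAT14 (0.158, 0.0421 and 0.105 FPKM in C4-2B MDVR and 7.85, 1.05 and 3.79 FPKM in CWR22Rv1), SCHLAP1 (0.273 against 2.25 FPKM) and HOTAIR (0.181 against 1.04 FPKM), of which PCAT14 and HOTAIR were called in all 3 pairs. Each of the 3 entered the set through its CWR22Rv1 level, so the count over compared genes follows in part from the rule. Of all 1614 compared long noncoding genes, 28.3% were higher in C4-2B MDVR and 32.5% in CWR22Rv1 under DMSO. The CWR22Rv1 count of the list was thus near the share of its class. Over all 16, whatever their level, 1 was over 2-fold higher in C4-2B MDVR and 4 in CWR22Rv1 under DMSO. In all 3 pairs the counts were 0 and 3.

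The most abundant genes outside the mitochondrial chromosome were shared in part, with 5 of the top 10 of each DMSO library in common (RPS27, RPL41, RPS18, EEF1A1 and RPS29). RPS2, RPS24 and RPL39, which also encode ribosomal proteins, completed the C4-2B MDVR set with RN7SL2 (7675, 798 and 467 FPKM in C4-2B MDVR and 368, 355 and 470.3 FPKM in CWR22Rv1) and RN7SL1 (6513, 737 and 380.5 FPKM in C4-2B MDVR and 349.7, 411 and 403 FPKM in CWR22Rv1). The 7SL genes were high in the C4-2B MDVR DMSO library alone. The CWR22Rv1 set held GAPDH, PPIA, RPS21, the pseudogene MTATP6P1 and TMSB10, an actin-binding thymosin. TMSB10 was the only called gene among the abundant protein-coding ones, at 620.1, 541 and 376 FPKM in C4-2B MDVR and 4664, 2923 and 4047 FPKM in CWR22Rv1.

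Luminal genes were at similar levels in the lines under DMSO. FOXA1, a pioneer factor that opens chromatin in luminal cells, was at 250.3, 104 and 199.6 FPKM in C4-2B MDVR and 230.2, 193 and 207 FPKM in CWR22Rv1. The levels under DMSO differed by less than 2-fold for HOXB13 (98.2 against 80.6 FPKM), KRT8 (219 against 184 FPKM), KRT18 (229.5 against 174 FPKM) and FOLH1, which encodes prostate-specific membrane antigen (179 against 134 FPKM). Of 7 luminal markers, only KLK3 was called, with C4-2B MDVR higher, and the list median was 0.40 under DMSO beside 0.03 for all genes. In the APO pair 1 marker was called for C4-2B MDVR and 2 for CWR22Rv1, and in the VER pair 1 for CWR22Rv1. The 3 basal markers KRT5, KRT14 and TP63 were at most 0.0773 FPKM and were not compared. Of the 9 markers of stroma, leukocytes and endothelium, 4 were compared. The matrix proteoglycans LUM (0.0283 against 23.9 FPKM) and DCN (0.136 against 1.54 FPKM) were higher in CWR22Rv1 and CD68, a lysosomal protein of macrophages, was higher in C4-2B MDVR (2.21 against 0.623 FPKM), all in 3 pairs. COL1A1 was at 6.68 against 3.32 FPKM, and PTPRC and PECAM1, which mark leukocytes and endothelium, were listed at 0 in both DMSO libraries.

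Features known of the LNCaP family were checked in C4-2B MDVR. ETV1, an ETS transcription factor that is known to be overexpressed in LNCaP through a rearrangement, was at 0.0484, 0.031 and 0.0626 FPKM in C4-2B MDVR and 6.85, 21.8 and 2.6 FPKM in CWR22Rv1. Its low level in C4-2B MDVR goes against that background. The glucocorticoid receptor NR3C1, known to be scarce in LNCaP, was at 0, 0.126 and 0.101 FPKM in C4-2B MDVR and 3.53, 10.3 and 5.57 FPKM in CWR22Rv1. For C4-2B MDVR, the source label reads LNCaP-C4-2B and a further label calls the cells of both lines parental, while the titles name C4-2B MDVR. The titles were used, and expression alone carries no genotype, so the identity of the line was not tested.

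**Figure D3:**
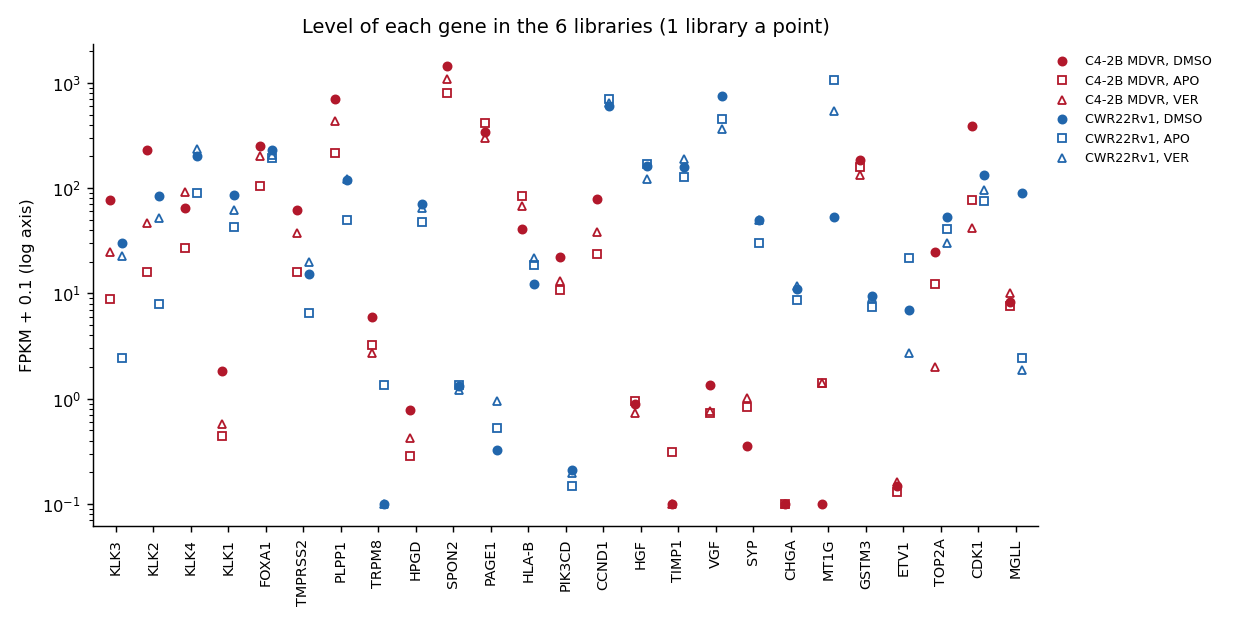
FPKM + 0.1 (log axis) of genes named in the text in each of the 6 libraries, 1 point a library, red for C4-2B MDVR and blue for CWR22Rv1; filled circles are DMSO, open squares APO and open triangles VER. SPON2, PAGE1 and PIK3CD separate the lines with C4-2B MDVR higher and TIMP1, HGF, VGF and SYP with CWR22Rv1 higher, while KLK2, KLK3, CDK1 and MGLL overlap.

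The counts of the lists below are set against the shares over all compared genes, which under DMSO were 17.3% higher in C4-2B MDVR and 20.7% higher in CWR22Rv1, or 38.0% in either direction, and in all 3 pairs 10.3% and 12.9%. Genes induced by androgen differed in both directions. Of 35 listed genes 34 were compared, 16 were higher in C4-2B MDVR and 7 in CWR22Rv1 under DMSO, and 9 and 6 of these were called in all 3 pairs. The list median was 0.67, 0.53 and -0.10 in the DMSO, APO and VER pairs, beside 0.03, 0.01 and 0.00 for all genes. TRPM8, a cation channel that senses cold, was at 5.9, 3.16 and 2.6 FPKM in C4-2B MDVR and 0, 1.26 and 0 FPKM in CWR22Rv1. The elongation factor partner EAF2 was at 23.2, 10.5 and 8.98 FPKM in C4-2B MDVR and 0.658, 1.21 and 0.792 FPKM in CWR22Rv1, and ABCC4, an efflux transporter, was at 38.6, 21.7 and 20.3 FPKM in C4-2B MDVR and 1.81, 1.65 and 1.77 FPKM in CWR22Rv1. PLPP1, a lipid phosphatase, was at 702, 215 and 431 FPKM in C4-2B MDVR and 119, 49.1 and 122 FPKM in CWR22Rv1. C4-2B MDVR was higher in all 3 pairs for these, and also for ALDH1A3 (6.38 against 0.144 FPKM), ACSL3, which activates fatty acids (331 against 41.1 FPKM), SORD, sorbitol dehydrogenase (237 against 29.6 FPKM) and HERC3 (33.3 against 6.65 FPKM). CWR22Rv1 was higher in all 3 pairs for HPGD, which degrades prostaglandins (0.689, 0.185 and 0.321 FPKM in C4-2B MDVR and 70.1, 47.8 and 64.8 FPKM in CWR22Rv1), the transcription factors MAF (0 against 2.75 FPKM) and ZBTB10 (15.6 against 115.7 FPKM), the elongation factor ELL2 (9.73 against 45.5 FPKM), KLK4 and PMEPA1, which dampens TGF-beta signaling (61.4 against 147 FPKM).

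The androgen-induced genes that were called under DMSO but not in all 3 pairs were mostly higher in C4-2B MDVR. TMPRSS2, a surface protease, was at 62.2, 15.9 and 37.7 FPKM in C4-2B MDVR and 15.3, 6.4 and 19.8 FPKM in CWR22Rv1, and STEAP4, a metalloreductase, was at 6.99, 0.617 and 0.379 FPKM in C4-2B MDVR and 0.655, 0.093 and 0.418 FPKM in CWR22Rv1. NDRG1 was at 103, 38.3 and 36.3 FPKM in C4-2B MDVR and 33.9, 34.6 and 34.5 FPKM in CWR22Rv1. The difference under DMSO was large in these genes and shrank below 2-fold in the VER pair. The lists of 7 genes described as repressed by androgen and of 7 UGT2B enzymes, which glucuronidate androgens, overlap in UGT2B15 and UGT2B17. Of the first, 6 were compared, with CAMK2N1 (18.9 against 4.91 FPKM) and UGT2B17 higher in C4-2B MDVR and TMEFF2 higher in CWR22Rv1 in all 3 pairs, and the place of TMEFF2 in that list is uncertain. Of the second, 6 were compared, with UGT2B11 (17.4 against 0.559 FPKM), UGT2B28 (2.2 against 0.104 FPKM) and UGT2B17 (1.71 against 0.155 FPKM) higher in C4-2B MDVR and UGT2B10 and UGT2B4 in CWR22Rv1 in all 3 pairs. These enzymes are close paralogs, and reads may have been split between them.

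Among enzymes of androgen synthesis and inactivation, those of the AKR1C family differed most. Of 23 genes 11 were compared, 1 was higher in C4-2B MDVR (STS, 2.12 against 0.991 FPKM) and 5 in CWR22Rv1, 2 of these in all 3 pairs. Over all 23 genes, whatever their level, 4 were over 2-fold higher in C4-2B MDVR and 8 in CWR22Rv1 under DMSO. AKR1C3, which makes testosterone from androstenedione, was at 0.474, 2.71 and 0.38 FPKM in C4-2B MDVR and 24.2, 28.9 and 42.1 FPKM in CWR22Rv1. AKR1C2, which inactivates dihydrotestosterone, was at 0.474, 15.2 and 2.89 FPKM in C4-2B MDVR and 14.5, 45.6 and 13.1 FPKM in CWR22Rv1, and AKR1C1 was at 0.484, 7.52 and 1.67 FPKM in C4-2B MDVR and 4.25, 6.1 and 3.25 FPKM in CWR22Rv1. AKR1C3 and AKR1C2 were over 2-fold higher in CWR22Rv1 in every pair, and AKR1C1 was called under DMSO alone. The genes of this family are close paralogs. Of the 3 steroid receptors compared out of 6, NR3C1 and NR3C2, the mineralocorticoid receptor (1.22 against 2.56 FPKM), were higher in CWR22Rv1.

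The kallikreins, serine proteases encoded side by side on chromosome 19, split by gene. KLK3 (chr19:50854915-50860764) was at 77.8, 8.84 and 24.4 FPKM in C4-2B MDVR and 30.2, 2.33 and 22.7 FPKM in CWR22Rv1, and KLK2 (chr19:50861568-50880567) was at 229, 15.9 and 46.5 FPKM in C4-2B MDVR and 83.4, 7.91 and 52 FPKM in CWR22Rv1. Both were higher in C4-2B MDVR under DMSO and within 2-fold in the VER pair, with log2 differences of 1.36, 1.88 and 0.11 for KLK3, and of 1.46, 0.997 and -0.16 for KLK2. In the APO pair KLK3 was thus called and KLK2 was just short of 2-fold. KLK4 (chr19:50906352-50910738) was at 64.5, 26.9 and 91.1 FPKM in C4-2B MDVR and 201, 90.5 and 234 FPKM in CWR22Rv1, and KLK1, tissue kallikrein (chr19:50819148-50823787), was at 1.74, 0.345 and 0.479 FPKM in C4-2B MDVR and 85.3, 42.7 and 61.2 FPKM in CWR22Rv1. KLK11 was at 21.8, 7.65 and 18.3 FPKM in CWR22Rv1 and listed at 0 in C4-2B MDVR. KLK1, KLK4, KLK11 and KLK13 were higher in CWR22Rv1 in all 3 pairs, so that of 7 compared kallikreins out of 15, 2 were higher in C4-2B MDVR and 5, with KLK15, in CWR22Rv1 under DMSO. KLK11, KLK13 and KLK15 entered the set through their CWR22Rv1 level alone. Over all 15, whatever their level, 3 were over 2-fold higher in C4-2B MDVR and 9 in CWR22Rv1 under DMSO. In all 3 pairs the counts were 0 and 6. The promoters of KLK2 and KLK3, neighbors that were both higher in C4-2B MDVR under DMSO, are shown from RefSeq (GRCh38.p14, plus strand, 250 bases before to 50 after the start, chr19:50873189-50873488 and chr19:50854665-50854964). Capitals mark AGAACA, the half-site of androgen response elements, searched on both strands.
KLK2: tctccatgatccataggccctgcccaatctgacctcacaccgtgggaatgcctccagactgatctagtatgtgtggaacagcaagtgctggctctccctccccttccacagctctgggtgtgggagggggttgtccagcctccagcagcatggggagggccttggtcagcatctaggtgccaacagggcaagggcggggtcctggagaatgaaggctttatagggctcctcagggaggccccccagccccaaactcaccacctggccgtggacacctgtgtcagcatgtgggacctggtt
KLK3: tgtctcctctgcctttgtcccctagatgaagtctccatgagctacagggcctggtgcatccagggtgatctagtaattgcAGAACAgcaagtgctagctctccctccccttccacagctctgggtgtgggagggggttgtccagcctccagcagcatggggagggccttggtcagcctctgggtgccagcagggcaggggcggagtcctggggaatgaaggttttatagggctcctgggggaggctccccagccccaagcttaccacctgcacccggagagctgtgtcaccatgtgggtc
AGAACA stands 170 bases before the start of KLK3, and 14.9% of all RefSeq promoter windows of this length hold it. The exact letters are not in the KLK2 window, which has GGAACA before the same bases, gcaagtgct, that follow AGAACA in KLK3. Only exact matches were searched, so a related site in KLK2 would not be marked. The KLK2 window lies within the coordinates given above for the gene, as RefSeq places its start further along. The 2 windows share a run of 80 identical bases. A match is a description of letters, and binding was not measured.

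Transcription factors that differed included HOX and ETS genes. Of 16 prostate and epithelial lineage factors 14 were compared, 3 were higher in C4-2B MDVR (EHF, GRHL2 and ZNF217) and 1 in CWR22Rv1 (SOX9, 4.14 against 12.3 FPKM), and only EHF was called in all 3 pairs. EHF, an ETS factor of epithelia, was at 163, 62.7 and 106 FPKM in C4-2B MDVR and 17.7, 19.1 and 16.6 FPKM in CWR22Rv1, and GRHL2 was at 57.4, 23.2 and 21.8 FPKM in C4-2B MDVR and 15.2, 22.7 and 13.5 FPKM in CWR22Rv1. Of 18 ETS genes 15 were compared, 2 were higher in C4-2B MDVR and 5 in CWR22Rv1, in sum near the share over all genes. Beside ETV1, the latter were ETV5 (0.225 against 5.02 FPKM), FEV (0.605 against 10.8 FPKM), ETV4 (1.06 against 9.3 FPKM) and ELF5 (1.11 against 4.24 FPKM). ETV4 was not called in the VER pair. HOX genes, which set position along the body axis, showed 12 of 23 compared genes higher in CWR22Rv1 and 3 higher in C4-2B MDVR, 10 and 2 of them in all 3 pairs, with a median log2 difference of -1.66, -1.70 and -0.98. Over all 39 HOX genes, 12 were over 2-fold higher in CWR22Rv1 and 3 in C4-2B MDVR in all 3 pairs. HOXC10 was at 14, 21.3 and 12.1 FPKM in CWR22Rv1 and listed at 0 in C4-2B MDVR. HOXB8 (0.0609 against 7.98 FPKM), HOXB3 (0.21 against 5.77 FPKM) and HOXA5 (0.499 against 11 FPKM) went the same way. HOXA11 (16.7, 8.75 and 10.7 FPKM in C4-2B MDVR and 0.0953, 0.257 and 0.39 FPKM in CWR22Rv1) and HOXA10 (48.8, 23.1 and 26.1 FPKM in C4-2B MDVR and 4.67, 4.25 and 3.43 FPKM in CWR22Rv1) were higher in C4-2B MDVR. The HOXA cluster therefore held genes called in each direction. TWIST1, which drives mesenchymal programs, was at 0, 0.248 and 0 FPKM in C4-2B MDVR and 12.7, 22 and 13.2 FPKM in CWR22Rv1.

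Several neuroendocrine markers were higher in CWR22Rv1. Of 18 markers 8 were compared, 6 were higher in CWR22Rv1 and 1 in C4-2B MDVR under DMSO, and 5 and 1 were called in all 3 pairs. Over all 18 matched markers, whatever their level, 6 were over 2-fold higher in CWR22Rv1 and 1 in C4-2B MDVR in all 3 pairs. In bulk RNA, fewer cells with a marker and less RNA per cell cannot be told apart. SYP, synaptophysin of secretory vesicles, was at 0.258, 0.741 and 0.917 FPKM in C4-2B MDVR and 49.6, 30.0 and 49.99 FPKM in CWR22Rv1, with log2 differences of -7.12, -5.16 and -5.62. CHGA, chromogranin A, was at 10.9, 8.64 and 11.7 FPKM in CWR22Rv1 and listed at 0 in C4-2B MDVR. SCG3 (0.0268 against 24.7 FPKM) and CHGB (0.0178 against 8.12 FPKM), further granins, had the same direction, as did CALCA, the calcitonin gene, at 0.119, 28.5 and 9.57 FPKM in C4-2B MDVR and 2.5, 145 and 45 FPKM in CWR22Rv1. ENO2 was at 21.9 against 79.3 FPKM. The defining factor NEUROD1 was listed at 0 in both DMSO libraries, INSM1 was at 0 against 0.156 FPKM, and NCAM1 was at 0.0519 against 0.087 FPKM. DLL3, an inhibitory Notch ligand of neuroendocrine tumors, was higher in C4-2B MDVR (10.8, 8.43 and 7.91 FPKM in C4-2B MDVR and 3.64, 2.02 and 3.07 FPKM in CWR22Rv1).

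**Figure D4:**
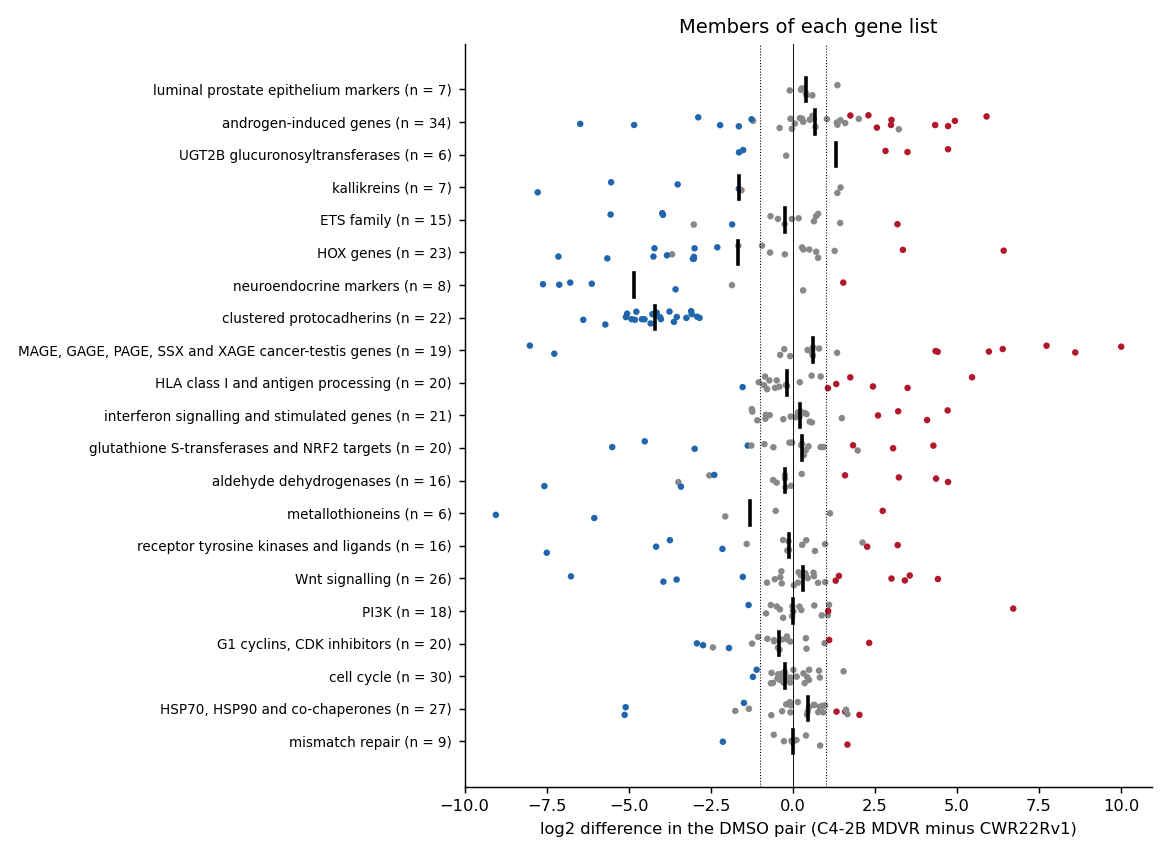
The log2 difference of each compared member of 21 gene lists in the DMSO pair (x; C4-2B MDVR minus CWR22Rv1), 1 point a gene, with the number compared after each name; black bars are list medians and dotted lines 2-fold. Red and blue points were called in all 3 pairs. All 22 clustered protocadherins lie to the left and most cell cycle genes lie between the dotted lines.

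Clustered protocadherins, adhesion proteins encoded in 3 tandem arrays on chromosome 5, were the only one of the lists with more than 5 compared members in which every compared member was called in 1 direction. All 22 that were compared out of 53 were higher in CWR22Rv1 in all 3 pairs, with medians of -4.21, -3.91 and -4.39. Each entered the set through its CWR22Rv1 level, as none was above 0.861 FPKM in C4-2B MDVR under DMSO, so the count over compared members follows in part from the rule. Over all 53 protocadherins of the cluster, whatever their level, 43 were over 2-fold higher in CWR22Rv1 and 2 in C4-2B MDVR under DMSO, and 37 and 1 in all 3 pairs. PCDHGB5 (0.338 against under 0.001 FPKM) and PCDHGA8 (0.225 against 0.0543 FPKM) were those higher in C4-2B MDVR under DMSO. PCDHB2 was at 0.281, 0.657 and 0.655 FPKM in C4-2B MDVR and 12.8, 11 and 16.8 FPKM in CWR22Rv1. PCDHA13 was at 8.24, 9.18 and 11.7 FPKM in CWR22Rv1 and at most 0.0393 FPKM in C4-2B MDVR. PCDHGC3 was at 0.861, 0.536 and 0.933 FPKM in C4-2B MDVR and 8.98, 3.21 and 12.3 FPKM in CWR22Rv1. PCDHA and PCDHG genes of an array share their last exons, so reads may have been split between neighbors, and the values of single genes are uncertain. Among all windows of 15 neighboring compared genes in the genome, the lowest median log2 difference, -4.52, was in this cluster (chr5:140786136-141180529), where all 15 genes were higher in CWR22Rv1, and the medians were -4.43 and -4.38 in the APO and VER pairs.

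The variable exons of this cluster are known to have their own promoters with a conserved element that contains CGCT. The promoter windows of the most highly expressed gene of each array with a RefSeq window are shown, on the plus strand of GRCh38.p14, at chr5:140785890-140786189, chr5:141094365-141094664 and chr5:141475716-141476015. Capitals mark CGCTG, searched on the strand of the gene.
PCDHA1: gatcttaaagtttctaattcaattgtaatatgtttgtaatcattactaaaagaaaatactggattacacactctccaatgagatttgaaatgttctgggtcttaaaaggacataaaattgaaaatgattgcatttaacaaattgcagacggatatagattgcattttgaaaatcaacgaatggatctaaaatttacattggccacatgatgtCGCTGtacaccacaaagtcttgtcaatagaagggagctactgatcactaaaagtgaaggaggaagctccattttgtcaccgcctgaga
PCDHB2: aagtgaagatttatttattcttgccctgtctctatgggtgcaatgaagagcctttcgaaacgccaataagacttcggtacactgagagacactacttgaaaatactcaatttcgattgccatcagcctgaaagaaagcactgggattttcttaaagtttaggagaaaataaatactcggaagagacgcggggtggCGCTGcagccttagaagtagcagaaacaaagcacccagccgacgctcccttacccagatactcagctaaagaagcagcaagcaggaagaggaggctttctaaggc
PCDHGC3: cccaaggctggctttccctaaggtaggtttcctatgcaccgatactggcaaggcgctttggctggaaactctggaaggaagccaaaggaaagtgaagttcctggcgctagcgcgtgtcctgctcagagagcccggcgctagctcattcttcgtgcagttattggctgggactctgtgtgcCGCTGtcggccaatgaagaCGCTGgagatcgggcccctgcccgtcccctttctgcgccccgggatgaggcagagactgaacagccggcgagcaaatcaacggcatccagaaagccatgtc
CGCTG was in 17 of 19 windows of compared protocadherins, in 23 of 28 windows of those that were not compared, and in 30.4% of all windows.

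Cancer-testis genes, normally limited to germ cells, were called more often for C4-2B MDVR than for CWR22Rv1. Of 19 compared genes out of 58, 8 were higher in C4-2B MDVR, 7 of them in all 3 pairs, and 2 in CWR22Rv1 in all 3 pairs. Over all 58 matched genes, whatever their level, 13 were over 2-fold higher in C4-2B MDVR and 2 in CWR22Rv1 under DMSO. In all 3 pairs the counts were 9 and 2, and 15 genes were listed at 0 in all 6 libraries. PAGE1 was at 337, 418 and 301 FPKM in C4-2B MDVR and 0.228, 0.429 and 0.85 FPKM in CWR22Rv1. GAGE2A was at 110.1, 193 and 40.6 FPKM in C4-2B MDVR and 0.182, 0.34 and 0.511 FPKM in CWR22Rv1, and MAGEA10 was at 55, 75.4 and 61.1 FPKM in C4-2B MDVR and 0.159, 0.147 and 0.158 FPKM in CWR22Rv1. GAGE1 and GAGE13 were at 8.34 and 6.2 FPKM under DMSO in C4-2B MDVR and listed at 0 in CWR22Rv1. MAGEA4 (0.573, 0.811 and 0.471 FPKM in C4-2B MDVR and 173, 195 and 162 FPKM in CWR22Rv1) and SSX3 (0.0948 against 29.9 FPKM) were higher in CWR22Rv1. MAGEA4 and SSX3 entered the set through CWR22Rv1 alone, and PAGE1, GAGE2A, MAGEA10, GAGE1 and GAGE13 through C4-2B MDVR alone. The counts over compared genes therefore follow in part from the rule. MAGEA1 (50.8 against 60.8 FPKM), MAGEA3 (97.1 against 63.3 FPKM) and MAGEA6 (62.3 against 41.2 FPKM) were within 2-fold. GAGE copies are nearly identical, so the split between them is uncertain. The window of 15 neighbors with the highest median, 4.42, held PAGE1 and 5 GAGE genes (chrX:49273054-52069248), with 10 genes higher in C4-2B MDVR and 1, CCNB3 (0.39 against 6.24 FPKM), in CWR22Rv1. The next 3 windows lay in histone clusters on chromosomes 6 and 1, with medians of 3.54, 3.08 and 2.98 under DMSO and of 0.70, 0 and 0 in the VER pair, and they hold the histone genes described above.

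Other neighborhoods were higher in CWR22Rv1. A window on chromosome 22 (chr22:22114844-23402726) had a median of -3.55 under DMSO but of -0.54 and 0 with APO and VER. It holds immunoglobulin lambda segments near 1 FPKM and pseudogenes, among them CES5AP1 (0 against 26.4 FPKM). PRAME, a cancer-testis antigen in it, was higher in C4-2B MDVR (91.2, 36.5 and 46.7 FPKM in C4-2B MDVR and 15.6, 8.31 and 12.8 FPKM in CWR22Rv1). A window on chromosome 3 (chr3:161083883-169812986) had medians of -3.05, -1.41 and -1.99 and held B3GALNT1 (0.165 against 19.9 FPKM), BCHE, butyrylcholinesterase (0.0291 against 14.3 FPKM), and MECOM (0.036 against 2.27 FPKM). Zinc finger genes filled another on chromosome 19 (chr19:21188598-22532485), with medians of -2.60, -1.43 and -2.83. In the list of 508 ZNF symbols, 447 were compared, 51 (17 in all 3 pairs) were higher in C4-2B MDVR and 67 (48 in all 3 pairs) in CWR22Rv1. Each of these counts is a smaller share than over all compared genes, which was 17.3% and 20.7% under DMSO and 10.3% and 12.9% in all 3 pairs. ZNF681 was at 0.0246 against 7.9 FPKM, ZNF22 at 0.0904 against 6.67 FPKM and ZNF516 at 3.28 against 0.0173 FPKM.

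**Figure D5:**
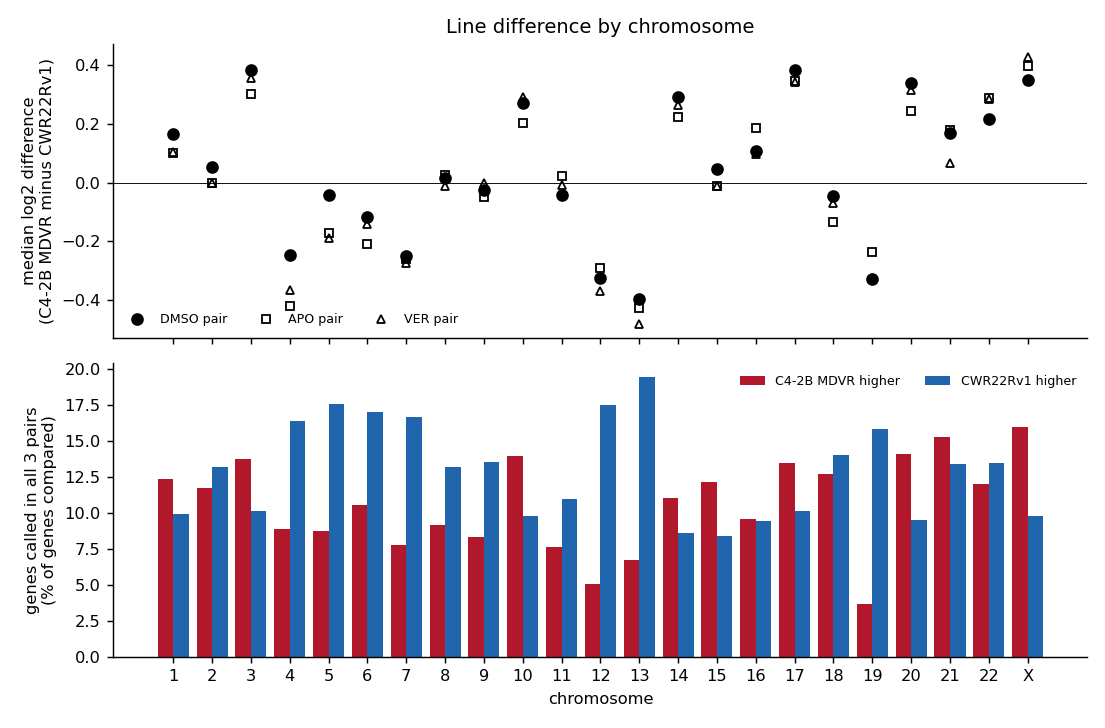
Upper plot: median log2 difference of the compared genes of each chromosome (C4-2B MDVR minus CWR22Rv1) in the 3 pairs. Lower plot: percent of compared genes called in all 3 pairs in each direction. Chromosomes 3, 17, 20 and X have medians above 0.3 and chromosomes 12, 13 and 19 below -0.3 under DMSO.

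Whole chromosomes differed slightly. The median log2 difference under DMSO was -0.40 over 237 genes of chromosome 13, -0.33 over 1113 genes of chromosome 19 and -0.32 over 831 genes of chromosome 12. It was 0.38 on chromosome 3 (839 genes), 0.38 on chromosome 17 (951 genes), 0.35 on chromosome X and 0.34 on chromosome 20. The medians of these chromosomes kept their sign in the APO and VER pairs, where they were -0.43 and -0.48 on chromosome 13, 0.30 and 0.36 on chromosome 3 and 0.40 and 0.43 on chromosome X. On chromosome 19, 3.68% of genes were higher in C4-2B MDVR and 15.8% in CWR22Rv1 in all 3 pairs. Chromosome copy number was not measured here.

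Some genes of antigen presentation and of the interferon response differed. Of 22 HLA class I and antigen processing genes 20 were compared, 6 were higher in C4-2B MDVR, all in 3 pairs, and 2 in CWR22Rv1, 1 of them in all 3 pairs. The list median was -0.19, 0.80 and 0.12 in the DMSO, APO and VER pairs, so its sign was not the same in each. HLA-B was at 41, 84.4 and 68 FPKM in C4-2B MDVR and 12.1, 18.5 and 21.7 FPKM in CWR22Rv1, with log2 differences of 1.75, 2.19 and 1.64. All 3 C4-2B MDVR libraries were above all 3 CWR22Rv1 libraries, as they were for 3733 of the 15164 compared genes. HLA-C (119 against 47.3 FPKM), HLA-F (6.6 against 0.0517 FPKM), the peptide transporter TAP2 (18.2 against 8.59 FPKM) and NLRC5, the activator of class I genes (1.1 against 0.121 FPKM), were also higher in C4-2B MDVR. The chaperones CANX (143 against 412 FPKM) and CALR (563 against 1153 FPKM) were higher in CWR22Rv1, and CALR was not called with either inhibitor. HLA genes are polymorphic and alike in sequence, which can change how reads map in each line. Of 30 interferon genes 21 were compared, 5 were higher in C4-2B MDVR and 3 in CWR22Rv1, near the shares over all genes, and 4 and 0 were called in all 3 pairs. IFI6 was at 22.7, 40.7 and 34.1 FPKM in C4-2B MDVR and 0.766, 0.649 and 1.56 FPKM in CWR22Rv1, IRF7 at 17, 25.3 and 30.6 FPKM in C4-2B MDVR and 2.73, 8.0 and 3.39 FPKM in CWR22Rv1, and IFIT1 at 1.37 against 0.0583 FPKM. OAS1 was at 1.61, 1.28 and 1.13 FPKM in C4-2B MDVR and listed at 0 in CWR22Rv1. TYK2 (20.7 against 49.3 FPKM), ISG20 (2.64 against 6.32 FPKM) and IRF9 (2.07 against 4.49 FPKM) were higher in CWR22Rv1 under DMSO.

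Some growth factors and receptors differed between the lines. Among 16 compared of 28 receptor tyrosine kinases and ligands, 3 were higher in C4-2B MDVR and 5 in CWR22Rv1, the former near the share over all genes. The other 8 were within 2-fold under DMSO. HGF, the ligand of MET, was at 0.799, 0.845 and 0.638 FPKM in C4-2B MDVR and 162, 168 and 121 FPKM in CWR22Rv1, with log2 differences of -7.50, -7.48 and -7.36, and MET was at 0.776, 2.2 and 1.97 FPKM in C4-2B MDVR and 3.76, 4.53 and 4.43 FPKM in CWR22Rv1. Both ligand and receptor were thus higher in CWR22Rv1. FGFR3 was at 2.41, 0.617 and 0.291 FPKM in C4-2B MDVR and 44.9, 12.8 and 28.4 FPKM in CWR22Rv1. AREG, an EGFR ligand, was at 0, 0.853 and 0.049 FPKM in C4-2B MDVR and 1.24, 51.8 and 5.0 FPKM in CWR22Rv1, and EGF was at 1.37, 4.28 and 4.83 FPKM in C4-2B MDVR and 0.06, 0.517 and 0.792 FPKM in CWR22Rv1, so that each line had more of a different EGFR ligand. AREG and EGF each passed the filter through 1 line alone, near 1 FPKM under DMSO. EGFR itself was at 21 against 25.8 FPKM. FGFR2 (1.34 against 0.198 FPKM) and IGF1 (6.1 against 1.32 FPKM) were higher in C4-2B MDVR. Of 19 genes of the PI3K and AKT pathway, 18 were compared, 4 were higher in C4-2B MDVR and 1 in CWR22Rv1, the former near the share over all genes, and 2 and 1 were called in all 3 pairs. PIK3CD, the p110-delta catalytic subunit, was at 22, 10.7 and 13.1 FPKM in C4-2B MDVR and 0.11, 0.0496 and 0.0959 FPKM in CWR22Rv1, with log2 differences of 6.72, 6.18 and 6.08. PIK3R3 was at 18.9 against 8.9 FPKM, PIK3CB at 45.4 against 21.5 FPKM and PIK3R1 at 12 against 5.52 FPKM, of which PIK3CB and PIK3R1 were not called in the APO pair. INPP4B, a phosphatase of the pathway, was at 0.657 against 1.82 FPKM. Of 35 Wnt genes 26 were compared, with 6 higher in C4-2B MDVR and 4 in CWR22Rv1 under DMSO, in sum near the 38.0% over all genes. Each of these was called in all 3 pairs. SFRP1, a secreted Wnt inhibitor, was at 5.53, 7.52 and 3.73 FPKM in C4-2B MDVR and 0.162, 0.147 and 0.0643 FPKM in CWR22Rv1, WNT5A at 8.58 against 0.713 FPKM, WNT7B at 29.4 against 3.57 FPKM and NKD1 at 1.16 against 0.00672 FPKM. DKK1, which blocks the LRP co-receptors, was at 0.0516, 0.187 and 0 FPKM in C4-2B MDVR and 16.3, 6.25 and 15.8 FPKM in CWR22Rv1, and FZD8 was at 1.59 against 25.8 FPKM.

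Some regulators of G1 differed. Of 21 genes of G1 control, mainly cyclins and CDK inhibitors, 20 were compared, 2 were higher in C4-2B MDVR and 6 in CWR22Rv1 under DMSO, in sum near the share over all genes. CCND1, cyclin D1, was at 78.9, 23.5 and 38.1 FPKM in C4-2B MDVR and 598, 695 and 647 FPKM in CWR22Rv1, with log2 differences of -2.92, -4.88 and -4.08. CDK6 was at 0.57 against 4.35 FPKM, and CDKN2A, which encodes the CDK4/6 inhibitor p16 and ARF, was at 16.3, 13 and 5.29 FPKM in C4-2B MDVR and 62.9, 75.7 and 53 FPKM in CWR22Rv1. CCND3 was at 56.7 against 26.2 FPKM. CCND1, CDK6 and CDKN2A were higher in CWR22Rv1 and CCND3 in C4-2B MDVR in all 3 pairs. Of 30 cell cycle genes, all compared, 27 were within 2-fold under DMSO. CDK1 was at 389, 76.4 and 41.6 FPKM in C4-2B MDVR and 133, 76.1 and 95.5 FPKM in CWR22Rv1. TOP2A (24.7, 12.1 and 1.9 FPKM in C4-2B MDVR and 53.1, 40.6 and 30.2 FPKM in CWR22Rv1) and CCNA2 (22.7, 6.91 and 1.3 FPKM in C4-2B MDVR and 52.7, 26.3 and 21.3 FPKM in CWR22Rv1) were higher in CWR22Rv1 in every pair. The list median was -0.24, -0.55 and -1.92 in the DMSO, APO and VER pairs, and 2, 6 and 25 of the 30 genes were over 2-fold higher in CWR22Rv1. The line difference in these genes was thus small with vehicle and larger with VER, in 1 library each. Of 9 mismatch repair genes, all compared, 1 was higher in each line in all 3 pairs and 7 were within 2-fold under DMSO. MSH3 was the one higher in C4-2B MDVR (3.39 against 0.999 FPKM), and MSH6 was within 2-fold (25.2 against 23.3 FPKM).

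Chaperones, the targets of APO and VER among them, were called about as often as all genes. Of 30 genes of HSP70, HSP90 and their co-chaperones, 27 were compared, 5 were higher in each line under DMSO, and 3 of each were called in all 3 pairs. HSPA1A was at 0.0691 against 5.79 FPKM, but it is nearly identical to HSPA1B, and their sum was 62.2, 13.6 and 33.1 FPKM in C4-2B MDVR and 45.0, 13.8 and 68.7 FPKM in CWR22Rv1. HSPA8, the constitutive HSP70, was at 1332, 1399 and 719 FPKM in C4-2B MDVR and 713, 545 and 1210.0 FPKM in CWR22Rv1, and STUB1, a ubiquitin ligase that works with HSP70, was at 135, 132 and 115 FPKM in C4-2B MDVR and 141, 145 and 123 FPKM in CWR22Rv1. HSPA2, an HSP70 of the testis, was at 0.15, 0.128 and 0.0444 FPKM in C4-2B MDVR and 8.42, 5.01 and 7.19 FPKM in CWR22Rv1. BAG1 (51.1 against 143 FPKM) was higher in CWR22Rv1 and BAG2 (8.76 against 2.82 FPKM), BAG3 (35.4 against 14 FPKM) and HSPA12A (3.18 against 0.702 FPKM) in C4-2B MDVR, each in all 3 pairs. HSPA4 (126 against 40.8 FPKM) and HSPH1 (81.7 against 25.7 FPKM) were higher in C4-2B MDVR, and HSPB8 (2.18 against 7.58 FPKM) and HSP90B1 (461 against 1162 FPKM) in CWR22Rv1, under DMSO.

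Detoxifying enzymes and metallothioneins differed by family member. Of 26 glutathione S-transferases and NRF2 targets 20 were compared, 4 were higher in C4-2B MDVR and 5 in CWR22Rv1. GSTM3 was at 185, 157 and 133 FPKM in C4-2B MDVR and 9.41, 7.39 and 8.89 FPKM in CWR22Rv1, with log2 differences of 4.29, 4.39 and 3.89, and its neighbor family member GSTM4 was at 0.199, 0.0896 and 0 FPKM in C4-2B MDVR and 13.4, 9.65 and 8.42 FPKM in CWR22Rv1. GSTA1 (4.93 against 0.504 FPKM), HMOX1, heme oxygenase (14.1 against 3.89 FPKM), and NQO1 (83.9 against 21.2 FPKM) were higher in C4-2B MDVR, and GSTO2 (0.907 against 22.8 FPKM) and GCLC, the catalytic subunit for glutathione synthesis (6.27 against 50.4 FPKM), in CWR22Rv1. Of 19 aldehyde dehydrogenases 16 were compared, 4 were higher in C4-2B MDVR, all in 3 pairs, and 5 in CWR22Rv1, 3 in all pairs. ALDH2, the mitochondrial enzyme of ethanol metabolism, was at 30.5, 71.3 and 67.1 FPKM in C4-2B MDVR and 1.38, 6.27 and 4.82 FPKM in CWR22Rv1. ALDH7A1 was at 0, 0.137 and 0.242 FPKM in C4-2B MDVR and 18.9, 23.2 and 14.9 FPKM in CWR22Rv1, and ALDH3A2 was at 55.7 against 324 FPKM. Of 11 metallothioneins, small metal-binding proteins, 6 were compared. MT1G was at 0, 1.31 and 1.3 FPKM in C4-2B MDVR and 52.8, 1062 and 539.7 FPKM in CWR22Rv1, and MT1E was at 0.182, 0.114 and 0.331 FPKM in C4-2B MDVR and 18.6, 127 and 73.5 FPKM in CWR22Rv1. MT1F was at 14.8, 114 and 137 FPKM in C4-2B MDVR and 2.13, 12.1 and 13.5 FPKM in CWR22Rv1, in the other direction. MT2A was at 100.2, 511 and 467 FPKM in C4-2B MDVR and 144, 792 and 411 FPKM in CWR22Rv1, within 2-fold. These genes are close paralogs.

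Epithelial genes complete the lists. Of 18 keratins 6 were compared, with KRT19 (16.6, 6.75 and 11.5 FPKM in C4-2B MDVR and 125, 92.7 and 119 FPKM in CWR22Rv1) and KRT7 (0 against 4.72 FPKM) higher in CWR22Rv1 in all 3 pairs, KRT15 in CWR22Rv1 and KRT10 in C4-2B MDVR under DMSO. Of 16 epithelial-mesenchymal genes 12 were compared, 3 were higher in each line, near the shares over all genes, and 2 of each were called in all 3 pairs. FN1, fibronectin, was at 115, 65.4 and 66.9 FPKM in C4-2B MDVR and 4.49, 6.61 and 9.11 FPKM in CWR22Rv1, and SNAI1 was at 5.7 against 0.589 FPKM. CDH1, E-cadherin, was at 148, 378 and 242 FPKM in C4-2B MDVR and 122, 138 and 133 FPKM in CWR22Rv1, CDH2 was at 0 against 1.06 FPKM and VIM was at 37.5 against 13.2 FPKM. Of 24 claudins, which form tight junctions, 8 were compared, and CLDN11 (0 against 19.8 FPKM), CLDN1 (0 against 1.18 FPKM) and CLDN3 (38.5 against 87.2 FPKM) were higher in CWR22Rv1, CLDN3 under DMSO alone. Of 26 integrins 14 were compared. ITGA6 (11.4 against 0.94 FPKM) and ITGB4 (4.35 against 0.379 FPKM), which pair as the laminin receptor of hemidesmosomes, were higher in C4-2B MDVR, and ITGA1 (0.00665 against 4.2 FPKM) and ITGB8 (0.0188 against 1.15 FPKM) in CWR22Rv1, in all 3 pairs.

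A small set of genes was called in opposite directions, 25 genes in all, 15 of them higher in C4-2B MDVR under DMSO and higher in CWR22Rv1 in both inhibitor pairs, and 10 the reverse. Most were near 1 FPKM. MGLL, monoacylglycerol lipase, had the highest level among the protein-coding ones, at 8.16, 7.51 and 9.91 FPKM in C4-2B MDVR and 89.7, 2.33 and 1.76 FPKM in CWR22Rv1. Its level was even across the C4-2B MDVR libraries and high in 1 CWR22Rv1 library, that with DMSO. With 1 library a condition, an effect of the inhibitors in CWR22Rv1 and a feature of that library cannot be told apart.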

How the data were processed

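Per the labels and the methods of the study, polyadenylated RNA of both lines was sequenced as paired reads, prepared with a stranded kit per the labels and with a kit of another maker per the methods. The authors deposited 1 FPKM value per Ensembl gene and library, and the submitters' processing notes name HISAT, Cufflinks, Cuffnorm and GRCh38, with no versions. FPKM are not counts, and library totals were not used here. Ratios of FPKM between 0.001 and 0.05 gave relative depths of 1.15 to 1.67 for the other libraries against C4-2B MDVR DMSO from few genes, so depth is otherwise unknown and no counting error is given. A gene listed at 0 may be a failed estimate.

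Identifiers were matched to GENCODE 29 (57047 of 60658, and all but 79 of the 15164 genes compared), which gives the coordinates. Differences were taken as log2(FPKM + 0.1) of C4-2B MDVR minus CWR22Rv1 within each treatment, and understate changes of low genes. Genes named were the 15 protein-coding and 5 long noncoding genes with the largest difference in each direction among those called in all 3 pairs, up to 5 of each of 33 lists a direction with members whose role is explained, the 5 with the largest reversed difference a direction, the 10 most abundant in each line and genes of the extreme windows. Further list members were named for their role, after their values were seen. Some genes are not reported here. Members and lists were chosen with earlier results of these data known. Promoter windows came from RefSeq and were found for 10287 of 12686 protein-coding genes. The functions were tested on simulated data, where 100 of 100 4-fold changes among 14125 genes of a simulated DMSO pair were called in all 3 pairs. The simulated libraries were copies of the CWR22Rv1 DMSO library with small added noise, and the changes were put in genes well above the threshold. This checks the code and does not measure how reliable the calls in the real pairs are. Alternatives covered pseudocounts, filters, scalings, thresholds and gene types. Python 3.11.15, pandas 2.3.3, numpy 2.4.6 and matplotlib 3.10.9 were used.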

Additional observations from a re-analysis of the deposited data

Results flagged for a closer look

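The 10 genes below were over 2-fold higher in the named line under DMSO and over 2-fold lower in it in both inhibitor pairs. Values are in the order DMSO, APO and VER, and the difference between treatments was not tested. Higher in C4-2B MDVR under DMSO were the small nucleolar RNA gene SNORD3B-1, at 6.7, 0.502 and 0 FPKM in C4-2B MDVR and 0, 8.7 and 7.36 FPKM in CWR22Rv1, and AC024940.5, at 1.98, 0.693 and under 0.001 FPKM in C4-2B MDVR and under 0.001, 1.56 and 0.478 FPKM in CWR22Rv1. The pseudogene AC133473.1 was at 1.38, 0 and 0 FPKM in C4-2B MDVR and 0, 1.26 and 2.63 FPKM in CWR22Rv1. The histone gene HIST1H3I was at 1.05, 0 and 0 FPKM in C4-2B MDVR and 0, 0.815 and 0.413 FPKM in CWR22Rv1, and AC124312.4 was at 13.1, 0 and 1.79 FPKM in C4-2B MDVR and 1.38, 1.31 and 6.39 FPKM in CWR22Rv1. Higher in CWR22Rv1 under DMSO were the pseudogene BANF1P3, at 0, 1.86 and 2.99 FPKM in C4-2B MDVR and 2.21, 0 and 0 FPKM in CWR22Rv1, and MGLL, at 8.16, 7.51 and 9.91 FPKM in C4-2B MDVR and 89.7, 2.33 and 1.76 FPKM in CWR22Rv1. LINC00470 was at 0.473, 1.1 and 0.94 FPKM in C4-2B MDVR and 4.5, 0 and 0 FPKM in CWR22Rv1, RF02164 at 25.6, 132 and 143 FPKM in C4-2B MDVR and 171, 35.1 and under 0.001 FPKM in CWR22Rv1, and EP300-AS1 at 0.342, 1.82 and 0.697 FPKM in C4-2B MDVR and 1.74, 0 and 0 FPKM in CWR22Rv1.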

How the results depend on the processing

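No paired analysis was possible because the vehicle comparison holds 1 library a group and the labels give no replicate numbers shared between groups. A fit of line with treatment as a block over all 6 libraries, which asks about the mean line difference over treatments, was not run. With 1 library a group, no library could be left out of a group. Counts are given as genes higher in C4-2B MDVR and in CWR22Rv1. With no filter, and with FPKM above 0.1 in at least 1 DMSO library, the DMSO pair held 4056 and 5681. With FPKM above 1 in both DMSO libraries it held 1566 and 1309, with 852 and 608 in all 3 pairs, since genes silent in 1 line then drop out. At 1.5-fold the C4-2B MDVR counts were 4353 in the DMSO pair and 2637 in all 3 pairs. At 4-fold they were 1089 and 1793 in the DMSO pair and 595 and 1146 in all 3 pairs. The other 36 counts, including those from the APO and VER pairs alone and those without histone genes and small noncoding RNA types (both chosen after seeing the data), stayed within 1.5 times. The rescalings moved the median log2 difference of all genes in the DMSO pair from 0.03 to between -0.09 and 0.09 and in the APO pair to as low as -0.17.

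Of the list medians beyond 1, some changed sign with the set of genes compared. The UGT2B median was -0.20 with no filter and with both other filters. The keratin median was 0.25 with FPKM above 0.1 in at least 1 library and 0.33 with FPKM above 1 in both. With FPKM above 1 in both, the medians were 0.32 for neuroendocrine markers, 1.14 for metallothioneins and 0.42 for HOX genes. No rescaling or pseudocount reversed a list median beyond 1 or a named gene called under DMSO, and 28 of 1779 values of named genes fell under 2-fold. Depth limits low values most, as FPKM near 1 rest on few fragments.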
